A study of Mus musculus with 8 samples.

Results

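The 8 genes described here are 7 caspases (Casp1, Casp2, Casp4, Casp6, Casp8, Casp9 and Casp12) and the death receptor Fas, chosen by name from the 34797 gene names or identifiers on the array: every non-control probe with a matching symbol was taken, whatever its signal. That gave 9 probes of 55681, 1 for each gene except Casp4, which has 2. The cells were the mouse B lymphoma line A20, and total RNA was measured on 8 one-colour microarrays, 2 for each of 4 lines: untransfected A20 cells, a stable transfectant carrying IgM (IgM+), and stable transfectants carrying IgE (IgE+ clone 18 and IgE+ clone 41). The design asks how membrane IgE transfectants differ from cells without it and from cells carrying membrane IgM instead. All lines share the A20 background and were kept in the same medium with 10% serum and 50 µM beta-mercaptoethanol. Each IgE+ line is 1 clone, and the labels do not say whether the IgM+ line is a clone or a pool. Nor do they tie the 2 arrays of each line to independent cultures: the p-values given here reflect array-to-array spread, which may be technical.

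Caspases are proteases that cut after aspartate and are made as inactive precursors. Initiator caspases are switched on inside large assemblies: Casp8 at death receptors such as Fas, Casp9 on the apoptosome that forms after cytochrome c leaves mitochondria, and Casp2 on the PIDDosome. They cut executioner caspases, such as Casp6, which dismantle the cell, while the inflammatory caspases Casp1 and Casp4 process interleukins or gasdermin D in response to microbial products. In B cells, Fas on the surface allows activated and germinal centre cells to be removed by cells that carry Fas ligand.

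Signals are given as log2 of the background-corrected spot intensity relative to the 75th percentile of its array, so that a difference of 1 is 2-fold. The 75th percentile was 474 to 664 intensity units over the 8 arrays (474 to 524 for the clones, 584 to 664 for untransfected and IgM+ cells), and 49.7% to 58.9% of spots were well above background. The SD of the log2 difference between the arrays of a line, over 24838 probes, was 0.65 for untransfected cells and 0.33 to 0.37 for the other lines. Probes detected above background in both samples of some line, 29140 in all, were tested. A probe was called changed at a limma adjusted p under 0.05 with a difference of at least 2-fold. Of all probes tested, 1050 were called higher and 1570 lower in the IgE+ clones than in the control lines; with arrays scaled on their median instead, 1843 were called higher and 1561 lower.

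The largest difference among these genes was in Casp4, the inflammatory caspase that senses lipopolysaccharide inside the cell and cuts gasdermin D. Its RNA fell 24.9-fold and 27.4-fold, by its 2 probes, in the IgE+ clones. Fas, the receptor through which Fas ligand activates Casp8, fell 2.05-fold, a change at the edge of the 2-fold threshold. Casp8 and Casp6 were lower and Casp2 was higher at an adjusted p under 0.05 but by less than 2-fold, Casp1 and Casp9 did not pass the test, and Casp12 was not well above background on any array. So 3 of the 8 member probes tested, from 2 of 7 genes, were called lower, and none was called higher, where 5.39% of all probes tested were called lower and 3.6% higher. In these bulk samples, fewer cells with a transcript and less transcript per cell cannot be told apart.

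The 2 Casp4 probes lie on the same stretch of transcript and are not independent measurements. They are 60 bases each and overlap by 55 bases, with the second shifted by 5 bases. They sit on the plus strand of chromosome 9 at chr9:5336658-5336717 and chr9:5336663-5336722 in the mm9 coordinates of the array files. The first 30 bases of each are shown so that the shift can be seen, with capitals for the bases that both probes hold within the stretches printed:
Casp4 probe 1: ccagcCTAAGCAACACAGTGGGATTCTGTT
Casp4 probe 2: CTAAGCAACACAGTGGGATTCTGTTCCATA

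For Casp4 probe 1 the log2 signals were 1.92 and 3.80 in untransfected cells, 1.73 and 0.89 in the IgM+ line, -2.89 and -2.94 in clone 18, and -2.71 and -1.68 in clone 41. Every IgE+ array lay below every control array, with a gap of over 2 log2 units between the groups. The probe was well above background on all 8 arrays, so the low signals in the clones are measured values and not bounds. Over 4 arrays each, the mean was 2.08 ± 1.23 (SD, n = 4) in the control lines and -2.55 ± 0.59 (SD, n = 4) in the IgE+ clones. The difference was -4.64 ± 0.46 (SE; limma adjusted p = 0.00111), or 24.9-fold lower, which ranked 133 of 29140 probes by size. Probe 2, being nearly the same sequence, gave -4.77 ± 0.49 (SE; limma adjusted p = 0.00126), or 27.4-fold lower. The untransfected arrays differed from each other by 1.88 (probe 1) and 1.95 (probe 2), the widest gap between arrays of 1 line for any of these genes that was tested.

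**Figure D1:**
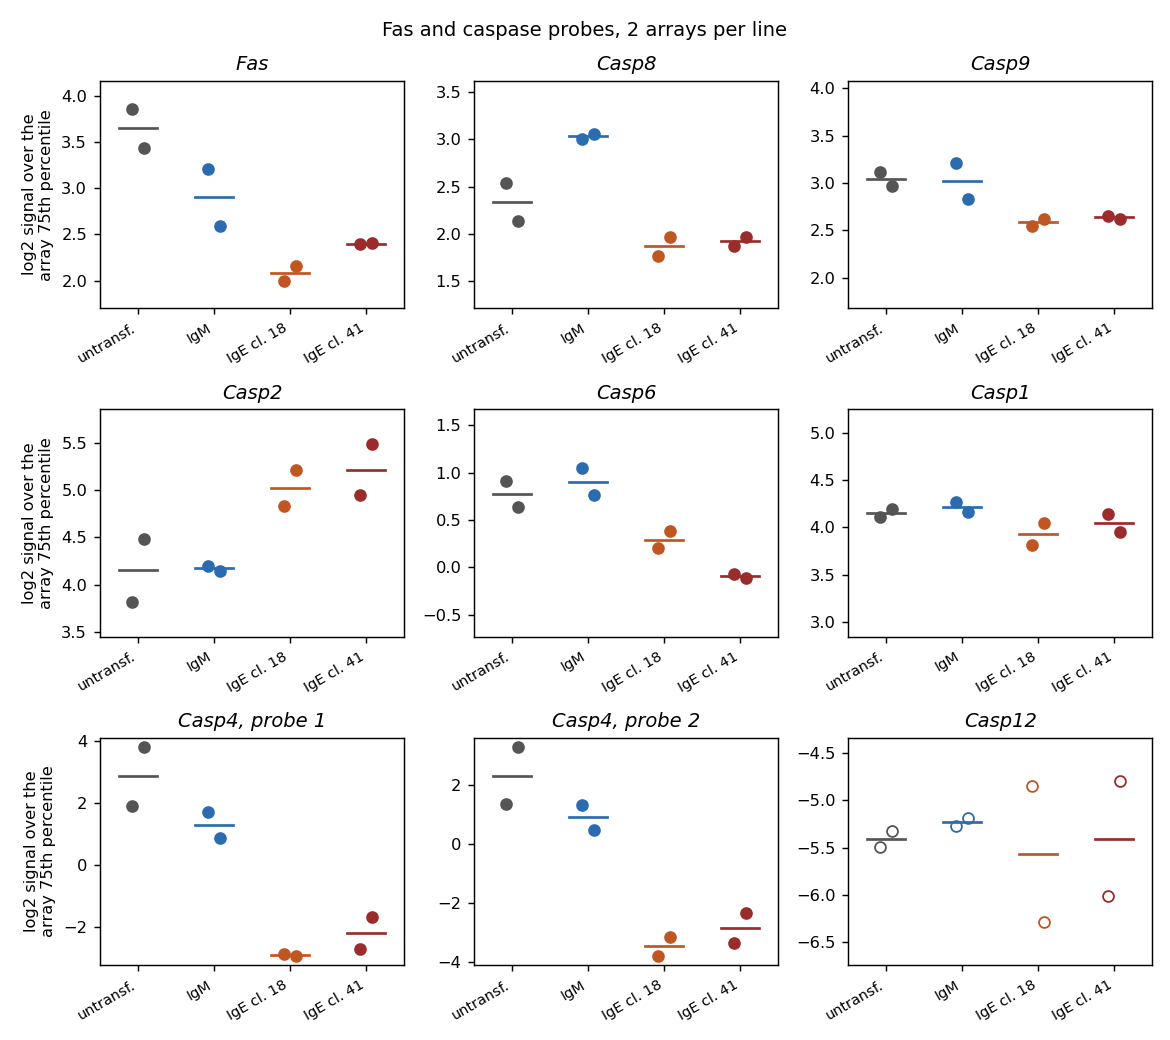
Log2 signal relative to the 75th percentile of the array (y axis, with its own range in each panel) for each member probe on each of the 8 arrays, by line on the x axis; points are single arrays, lines are the means of the 2 arrays of a line, and open points were not well above background. The IgE+ arrays lie below every control array for both Casp4 probes (probe 1 -2.94 to -1.68 against 0.89 to 3.80), Fas, Casp8, Casp6 and Casp9, above them for Casp2, and overlap them for Casp1 and Casp12.

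Casp4 was lower in each clone than in each control line. Clone 18 was 5.77 log2 units below untransfected cells at probe 1 (-5.77; limma adjusted p = 0.0033) and clone 41 differed from them by -5.06 (adjusted p = 0.0067). Against the IgM+ line the differences were -4.22 (adjusted p = 0.0096) for clone 18 and -3.50 (adjusted p = 0.0216) for clone 41. These comparisons share control arrays, so they are not independent of each other. Within the control lines and within the clones the test was not passed: the IgM+ line differed from untransfected cells by -1.55 (adjusted p = 0.336), and clone 41 from clone 18 by 0.72 (adjusted p = 1). In order of level the lines ran untransfected, IgM+, clone 41 and clone 18, and among these steps the fit called the one between the IgM+ line and clone 41. With arrays scaled on their median, the IgM+ line also fell below untransfected cells at both probes (-1.98, adjusted p = 0.00138, and -1.85, adjusted p = 0.00446). Both calls against the IgM+ line were lost without some single arrays. Over the fits without 1 array, the probe 1 differences ran from -4.64 to -3.80 for clone 18 and from -4.02 to -2.99 for clone 41. Without 1 array, adjusted p at probe 1 reached 0.0748 for clone 18, over the threshold without IgM+ array 1 or either clone 18 array. It reached 0.126 for clone 41, over the threshold without IgM+ array 1 or any 1 of the 4 clone arrays. The clone 41 call against the IgM+ line was also lost in the authors' deposited table (-2.99, adjusted p = 0.0726, at probe 1 and -3.04, adjusted p = 0.0703, at probe 2) and with no filter on dim probes (adjusted p = 0.081 and 0.080).

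**Figure D2:**
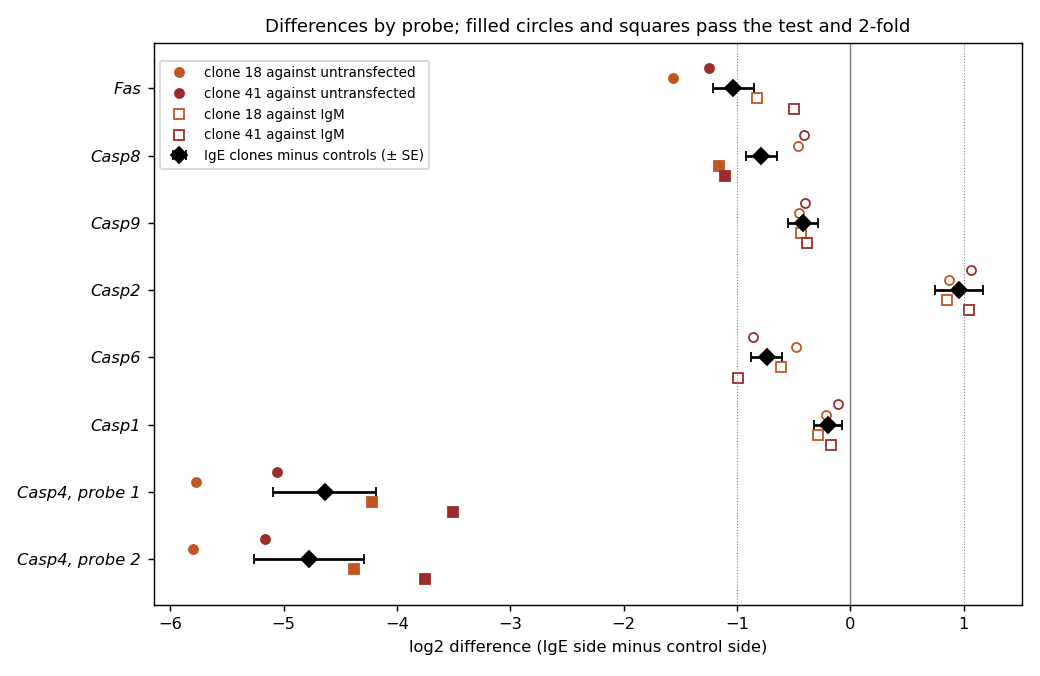
Difference in log2 signal (x axis) between the mean of the 2 IgE+ clones and the mean of the 2 control lines, and for each clone against each control line, for the 8 member probes tested; horizontal bars on the pooled difference are standard errors of the limma fit, and filled circles and squares passed the test and 2-fold. Both Casp4 probes stand near -4.64 and -4.77, Fas at -1.03, and the other caspases lie between -0.79 and 0.96.

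The neighbouring genes were examined because Casp4 lies in a group of inflammatory caspase genes on chromosome 9. Casp1, whose product processes interleukin-1 beta and interleukin-18, has its probe 29.5 kb before the Casp4 probe at chr9:5307206-5307265, and Casp12 has its probe 36.3 kb after it at chr9:5372975-5373034. Casp1 gave 4.11 and 4.19 in untransfected cells, 4.27 and 4.16 in the IgM+ line, 3.82 and 4.05 in clone 18, and 4.14 and 3.95 in clone 41. Its IgE+ and control arrays overlapped, with a difference of -0.20 ± 0.12 (SE; limma adjusted p = 0.32). Casp12 was below the background limit on all 8 arrays, at -6.28 to -4.80, and so was not tested. Of 6 further probes within 1 Mb, 2 were tested and neither was called. The nearest of these lies 570.7 kb away and differed by -0.11 ± 0.34 (SE; adjusted p = 0.848), and the probe of 8430410K20Rik differed by -0.26 ± 0.17 (SE; adjusted p = 0.345). The tested probes on either side of Casp4 thus gave differences of -0.26 to -0.11, against -4.64 at Casp4 probe 1.

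**Figure D3:**
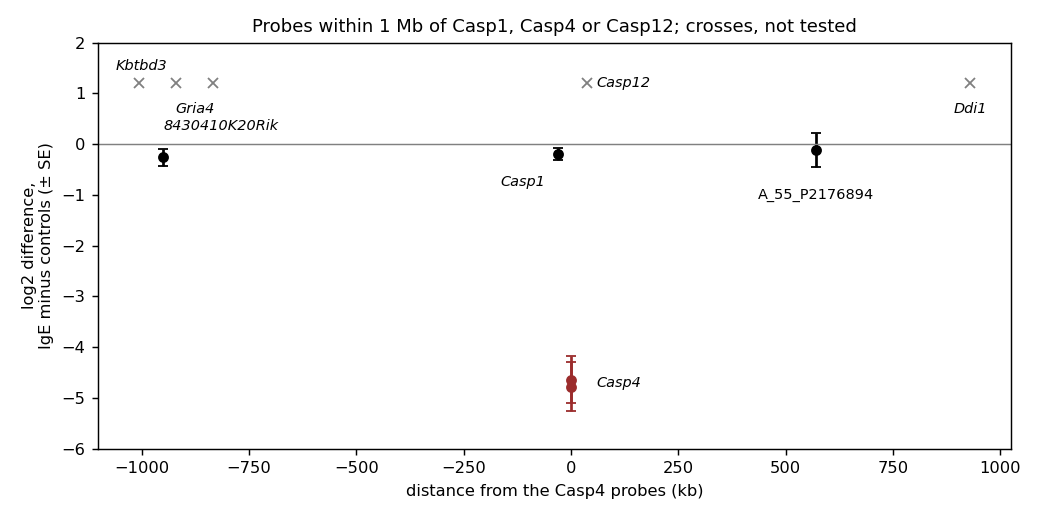
Difference in log2 signal between IgE+ clones and control lines (y axis) for probes within 1 Mb of the Casp1, Casp4 and Casp12 probes, against distance from the Casp4 probe in kb (x axis); bars are standard errors, and crosses mark the position of probes that were not tested, drawn at an arbitrary height. The 2 Casp4 probes stand near -4.64 and -4.77 while Casp1, 29.5 kb away, stands at -0.20.

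The promoters of the 2 genes that fell are shown from the RefSeq table (GRCm38.p6, 250 bases before the start site), with the matches to the motifs searched for. These coordinates belong to a different build from the probe positions. Both strands were searched for the interferon-stimulated response element core (GAAA, any 2 bases, GAAA), the gamma-activated site (TTCNNNGAA) and the kappaB consensus. The kappaB consensus was chosen after the Casp4 promoter was seen, so its match there was known beforehand and tests nothing. In the Casp4 promoter, chr9:5308599-5308848 on the plus strand, the capitals mark 2 overlapping kappaB matches that begin at positions -93 and -92 from the start site. From another Casp4 start site in the RefSeq table, the same matches begin at positions -104 and -103. In the Fas promoter, chr19:34290409-34290658 on the plus strand, the capitals mark a gamma-activated site match that begins at position -93:
Casp4 promoter: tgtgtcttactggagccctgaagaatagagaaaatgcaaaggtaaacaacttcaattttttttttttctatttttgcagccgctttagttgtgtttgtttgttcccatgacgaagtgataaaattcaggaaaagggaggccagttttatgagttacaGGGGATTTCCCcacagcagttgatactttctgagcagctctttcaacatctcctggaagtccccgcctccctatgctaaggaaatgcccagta
Fas promoter: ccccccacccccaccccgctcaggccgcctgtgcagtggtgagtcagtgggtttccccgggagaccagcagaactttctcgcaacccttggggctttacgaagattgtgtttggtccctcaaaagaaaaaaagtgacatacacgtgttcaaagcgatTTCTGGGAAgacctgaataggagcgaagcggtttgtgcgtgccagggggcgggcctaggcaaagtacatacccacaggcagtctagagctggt

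Among 32851 promoters of the table, 3.9% hold a kappaB match, 7.02% a gamma-activated site match and 2.98% an interferon-stimulated response element core. All 8 member genes have a promoter in the table. Besides Fas, Casp12 holds the gamma-activated site letters, and no member holds the interferon-stimulated response element core. These matches describe the letters in the window and are not binding sites.

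Fas carries the death domain that recruits FADD and Casp8. Its probe, printed on 2 spots of each array and located at chr19:34402164-34402223 (mm9, plus strand), gave 3.86 and 3.44 in untransfected cells, 3.21 and 2.59 in the IgM+ line, 2.00 and 2.16 in clone 18, and 2.39 and 2.41 in clone 41. The IgE+ arrays lay below all control arrays, but the lower IgM+ array was close to clone 41. Means were 3.27 ± 0.53 (SD, n = 4) in control lines and 2.24 ± 0.20 (SD, n = 4) in clones, a difference of -1.03 ± 0.18 (SE; limma adjusted p = 0.0113), ranked 3061 of 29140 by size. The call needed the 2-fold minimum to be just met: the difference was -0.93 without untransfected array 1, -0.88 without IgM+ array 1, -0.99 without clone 18 array 1, -0.85 with median scaling and -0.97 in the authors' deposited table. Fas fell against untransfected cells in clone 18 (-1.57, adjusted p = 0.0145) and in clone 41 (-1.25, adjusted p = 0.0389). Against the IgM+ line the differences were -0.82 (adjusted p = 0.101) and -0.50 (adjusted p = 0.308), and the IgM+ line differed from untransfected cells by -0.75 (adjusted p = 0.255). Without 1 array, adjusted p against untransfected cells reached 0.109 for clone 18, without either of its own arrays, and 0.168 for clone 41, without any 1 of the clone arrays, untransfected array 1 or IgM+ array 2. With no filter on dim probes neither was called (adjusted p = 0.0569 and 0.124), and in the authors' deposited table clone 41 was not (-1.12, adjusted p = 0.0671).

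Casp8, the initiator caspase at Fas, was probed at chr1:58901601-58901660 (mm9, plus strand). It gave 2.53 and 2.14 in untransfected cells, 3.004 and 3.06 in the IgM+ line, 1.77 and 1.97 in clone 18, and 1.88 and 1.97 in clone 41. The IgM+ arrays were the highest and the 4 IgE+ arrays lay close together, below all control arrays. Means were 2.68 ± 0.43 (SD, n = 4) and 1.90 ± 0.09 (SD, n = 4), a difference of -0.79 ± 0.14 (SE; limma adjusted p = 0.0112) that was short of 2-fold. Its adjusted p missed 0.05 with median scaling (-0.60, adjusted p = 0.164) and without clone 18 array 1 or clone 41 array 1, reaching 0.0537. By line means, the IgM+ line was above untransfected cells here and below them for Fas; neither step passed the test. Casp8 fell against the IgM+ line in clone 18 (-1.16, adjusted p = 0.0136) and in clone 41 (-1.11, adjusted p = 0.0186). Against untransfected cells the differences were -0.47 (adjusted p = 0.188) and -0.41 (adjusted p = 0.276). With median scaling the differences from the IgM+ line were -0.80 and -0.67, and neither was called. Clone 41 was also not called with normexp background correction (-0.99, short of 2-fold) or with no filter on dim probes (adjusted p = 0.0566). Without 1 array, their adjusted p reached 0.0998 for clone 18 (over the threshold without IgM+ array 1 or either of its own arrays) and 0.116 for clone 41 (without either IgM+ array, clone 18 array 2 or either of its own).

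Each clone therefore had 3 member probes called lower against each control line, though not the same genes throughout. Against untransfected cells they were the Casp4 pair and Fas, where 3.96% of all probes were called lower for clone 18 and 3.06% for clone 41. Against the IgM+ line they were the Casp4 pair and Casp8, where 5.51% and 4.66% were called lower. Whether Fas and Casp8 truly differ in which control line they fall against was not tested beyond these pairwise values. No member probe was called between the IgM+ line and untransfected cells, where 1.82% of all probes were called in either direction and 3 member probes had an unadjusted limma p under 0.05. None was called between the clones, where 0.261% were called and no member probe had an unadjusted limma p under 0.05.

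Casp2 was the 1 member that stood higher in the clones. Its probe at chr6:42232367-42232426 (mm9, plus strand) gave 3.82 and 4.49 in untransfected cells, 4.20 and 4.14 in the IgM+ line, 4.83 and 5.22 in clone 18, and 4.95 and 5.48 in clone 41. All IgE+ arrays were above all control arrays. The difference was 0.96 ± 0.21 (SE; limma adjusted p = 0.025), short of 2-fold, and none of the 4 pairs of a clone with a control line passed the test (adjusted p = 0.0861 to 0.132). It passed 2-fold with median scaling (1.14, adjusted p = 0.00275), without untransfected array 2 (1.13) and without clone 41 array 1 (1.09). Its adjusted p missed 0.05 with no filter on dim probes (0.0786) and without either IgM+ array, either clone 18 array or clone 41 array 2, reaching 0.101. Clone 41 against the IgM+ line passed in some alternatives: median scaling (1.48, adjusted p = 0.00962), a trended and robust variance prior (1.045, adjusted p = 0.04004), the replicate number as a block (1.045, adjusted p = 0.0462) and the fit without untransfected array 1. Clone 18 against the IgM+ line passed with median scaling (1.22, adjusted p = 0.0413), and clone 41 against untransfected cells with normexp background correction (1.07, adjusted p = 0.0488) and with the trended and robust prior (1.065, adjusted p = 0.0446).

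Casp6, an executioner caspase, was probed at chr3:129616453-129616512 (mm9, plus strand). Its signals were 0.91 and 0.63 in untransfected cells, 1.04 and 0.76 in the IgM+ line, 0.20 and 0.38 in clone 18, and -0.07 and -0.11 in clone 41. The groups did not overlap, and clone 41 was the lowest line. The difference was -0.74 ± 0.14 (SE; limma adjusted p = 0.0131), again short of 2-fold. Its adjusted p missed 0.05 with median scaling (-0.55, adjusted p = 0.200) and without IgM+ array 1, clone 18 array 1 or either clone 41 array, reaching 0.0603.

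Casp9, the apoptosome protease, was probed at chr4:141371773-141371832 (mm9, plus strand). It gave 3.11 and 2.97 in untransfected cells, 3.21 and 2.83 in the IgM+ line, 2.54 and 2.62 in clone 18, and 2.65 and 2.62 in clone 41. The arrays of the groups did not overlap, but the difference of -0.42 ± 0.13 (SE; limma adjusted p = 0.0749) did not pass the test.

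By array values alone, 6 of the 8 member probes tested had every IgE+ array below every control array and 1 had every IgE+ array above. Over the 29106 probes with values for all arrays, 9.92% were wholly below and 14.1% wholly above. At an adjusted p under 0.05 with no fold minimum, 5 member probes were lower and 1 was higher, where 8.72% and 8.26% of all probes were. The median difference of the member probes was -0.76, and that of all probes tested was 0.05. The Casp4 pair counts 2 times in these figures.

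The rest of the pathway was read from 8 lists of other caspases, death receptor genes, apoptosome and PIDDosome genes, inhibitors of apoptosis, inflammasome genes, caspase substrates, endoplasmic reticulum stress genes and upstream regulators. Of 101 probes tested from 72 genes, 2 were called higher and 3 lower, 4.95%, where 8.99% of all probes were called in either direction. The median difference was -0.01.

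On the death receptor list 1 of 17 probes was called. Tnfsf10, which encodes the death ligand TRAIL, was well above background on 2 control arrays, both IgM+, and on no IgE+ array. Its pooled difference is thus a bound of at least 1.08-fold lower (fitted difference -2.34, limma adjusted p = 0.0049). With normexp background correction it was not called (-0.36, adjusted p = 0.060), nor in the authors' deposited table (-0.95). Neither clone passed the test for Tnfsf10 against untransfected cells (clone 18 -1.28, adjusted p = 0.149, and clone 41 -1.20, adjusted p = 0.200). Against the IgM+ line the differences were -3.48 (adjusted p = 0.0057) and -3.40 (adjusted p = 0.0075). The adaptor Fadd, which links Fas to Casp8, differed by -0.06 ± 0.15 (SE; adjusted p = 0.836). Fas ligand (Fasl) was not well above background on any array, and the 4 probes of Cflar, the Casp8 inhibitor, were not called, with differences of -0.66 to 0.21. None of 13 apoptosome and PIDDosome probes was called. Apaf1, the apoptosome scaffold, differed by -0.18 ± 0.16 (SE), and Cradd, the adaptor that binds Casp2, was lower at 1 probe without reaching 2-fold (-0.93, adjusted p = 0.0142) and differed by -0.53 (adjusted p = 0.105) at the other.

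The inflammasome list held 4 of the 5 calls, out of 14 probes tested, and the calls went both ways. Nlrc4, an inflammasome sensor scaffold, was well above background on all 4 IgE+ arrays and no control array. In the reported processing it was at least 22.5-fold higher (limma adjusted p = 2.32e-05). Its fitted difference ran from 2.81 to 5.11 log2 units over the alternatives, so the size of this bound depends on the processing. Aim2, a sensor of cytosolic DNA, rose 2.39-fold (adjusted p = 0.001). Serpinb9, an inhibitor of granzyme B, fell 4.82-fold (adjusted p = 0.000115), and Il18, a substrate of Casp1, fell 4.85-fold (adjusted p = 0.000877). Serpinb9 was well above background on 3 of the 4 IgE+ arrays and Il18 on 2, so the sizes of these falls rest partly on dim signals. With normexp background correction Serpinb9 and Il18 came to -0.9997 and -0.74, short of 2-fold. Pycard, the adaptor that joins sensors to Casp1, and Gsdmd, the pore protein cut by Casp4, were lower by less than 2-fold (-0.91, adjusted p = 0.0335, and -0.84, adjusted p = 0.0428). For Pycard, clone 18 differed by -1.55 from untransfected cells (limma adjusted p = 0.0278) and by -1.23 from the IgM+ line (adjusted p = 0.0533). Clone 41 differed from them by -0.59 (adjusted p = 0.312) and -0.27 (adjusted p = 0.665). The clones did not pass the test against each other (0.96, adjusted p = 0.653). Il1b was not well above background on any array.

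**Figure D4:**
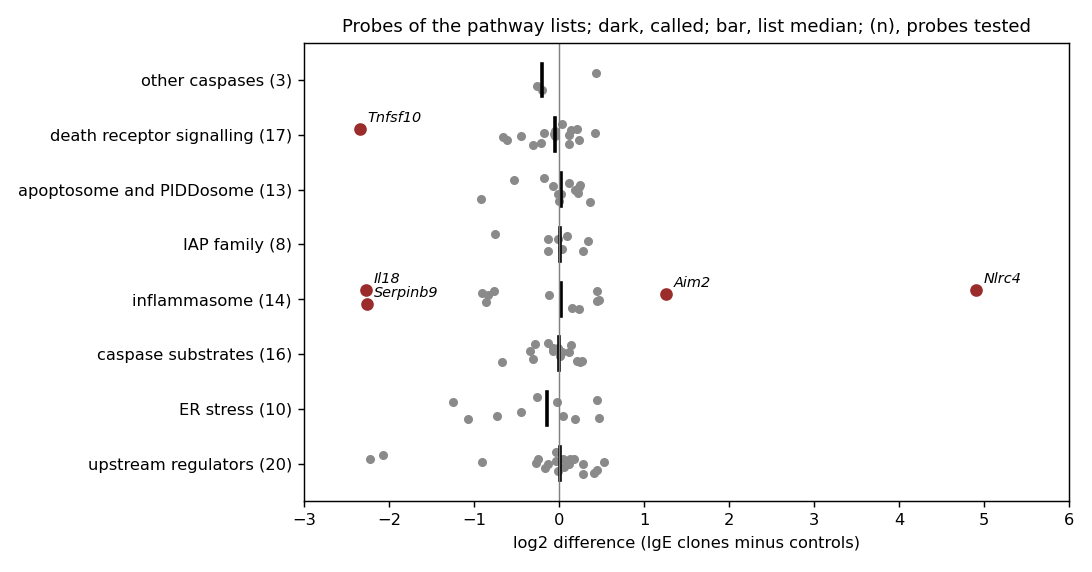
Difference in log2 signal between IgE+ clones and control lines (x axis) for each tested probe of the 8 pathway lists (y axis), 1 point per probe, with called probes dark and labelled and each list's median as a bar. Of 101 probes 5 were called, among them Nlrc4 as the point farthest to the right at 4.90.

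No probe of the inhibitors of apoptosis, the caspase substrates, the stress genes or the upstream regulators was called, out of 8, 16, 10 and 20 tested. Among the upstream regulators, Irf8, an interferon-responsive transcription factor, was lower by less than 2-fold (-0.91, limma adjusted p = 0.0318). Ifnar1, a chain of the type I interferon receptor, was higher by less than 2-fold at 1 of its 3 tested probes (0.53, adjusted p = 0.0335) and gave 0.41 (adjusted p = 0.091) and 0.27 (adjusted p = 0.194) at the others. Irf1 gave a difference of -0.28 ± 0.24 (SE) and Nfkb1, at the probe with the larger value, 0.12 ± 0.15 (SE). Cdkn1a, a p53 target that halts the cell cycle, gave -2.07 ± 0.64 (SE; adjusted p = 0.0694) and -2.23 ± 0.87 (SE; adjusted p = 0.127) at its 2 tested probes. Xiap, which inhibits Casp9, gave 0.09 ± 0.12 (SE).

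The probes whose signals over the 8 arrays most resembled Casp4 probe 1, among 14914 named probes well above background everywhere, were those of Irgm1, a GTPase (Pearson r = 0.992), Cyct (0.9905) and Ssr3 (0.9899). For Casp8 they were Krba1 (r = 0.996), Pias2 (0.988) and Gm5382 (0.986), and for Fas they were the chemokine Cxcl10 (r = 0.988), B3gnt2 (0.987) and Ell2 (0.986). With 8 arrays and a shared line structure, such coefficients describe a likeness and carry no test.

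The A20 label was checked against cell type markers. Each of the 8 arrays detected all 11 B cell marker probes, Cd79a and Pax5 among them, well above background. The summed linear signal of these probes, in units of the array's 75th percentile, was 484 to 543 on control arrays and 567 to 596 on IgE+ arrays. Saturated spots weigh on this sum: Cd74 was saturated on 8 arrays, each H2-Ab1 probe on 6 and Cd79b on 3. A saturated signal over the lower 75th percentile of the clones comes out higher, so the sum does not compare the groups. Of 17 myeloid probes 12 were tested, and 3 were called higher, 2 of Cd68 and 1 of Mpo, and 2 lower, both of Emr1. Their summed signals were 49.0 to 59.8 on control arrays and 49.9 to 72.2 on IgE+ arrays. Lyz2, Cd14 and S100a8 passed the background limit on no array, while other myeloid probes passed it on all 8. Among the latter, the brightest Itgam probe averaged 5.49 in control lines and 5.58 in IgE+ clones, and Elane 0.19 and 0.50. This list therefore does not show that myeloid transcripts were absent. Of 10 T cell probes 5 were tested and 1, Cd3g, was called lower, with summed signals of 10.9 to 17.6 and 16.8 to 20.7. Cd3g was well above background on 2 control arrays and no IgE+ array, with IgM+ signals of -1.39 and -0.62. Neither clone passed the test against untransfected cells for Cd3g (-1.39, limma adjusted p = 0.134, and -1.30, adjusted p = 0.179). Of 4 plasma cell probes 3 were tested and none was called, with 89.5 to 104 and 113 to 136. Igj, the brightest of them, was saturated on all 8 arrays, so this sum does not compare the groups either. Of 8 erythroid and stromal probes 5 were tested and 1, Hbb-b1, was called higher, with 0.923 to 11.2 and 3.16 to 15.2. Hbb-b1 was lowest in the IgM+ line (-1.16 and -0.91, against 3.44 and 2.15 in untransfected cells). Against untransfected cells clone 18 differed by 1.04 (limma adjusted p = 0.162) and clone 41 by -1.12 (adjusted p = 0.168). The part of these differences in the Casp4 and Fas values was not tested.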

How the data were processed

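RNA from 4 lines was hybridised to 8 Agilent arrays (design 028005), all on 1 slide with 1 scan time. Each line took a slide column of its own, so an effect of the column cannot be told apart from that of the line. The deposited scanner files hold intensity values, background-subtracted by Feature Extraction 10.7.3.1 per the file headers. The authors' deposited value table holds log2 values whose ranks match median pixel intensity, with array medians of 5.9 to 5.92; their exact scaling is not given in the sources used here, and the table served as an alternative only.

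Here log2 of the processed intensity minus the array's 75th percentile was fitted with limma 3.58.1 in R 4.3.3, with 1 mean per line over 29140 probes and 4 residual degrees of freedom, two-sided, with Benjamini-Hochberg adjustment over all probes. Outlier spots were left out and spots of a probe averaged. IgE+ clones (2 lines) were compared with control lines (2 lines) and every pair of lines was compared. A transcript not above background in a whole group got a bound. The code was tested on simulated data. Having 2 arrays per line limits the precision.

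Named were all member probes, every pathway gene called (at most 4 per list), called genes within 1 Mb of the Casp1, Casp4 and Casp12 probes, and the 3 probes most like each called member. Some genes that this rule or the lists hold are not reported here. Other pathway genes were named after their values were seen, and the kappaB consensus was chosen after the Casp4 promoter was seen. The members and lists were chosen with earlier results of these data known. Alternatives covered scaling, background correction, the filter, outlier spots, the variance prior, the probe per gene, the value source, the fit, the replicate block, the threshold and leaving out each array.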

Additional observations from a re-analysis of the deposited data

Results flagged for a closer look

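Serpinb9 was the 1 result marked for a closer look, because the clones differed from each other in a direct test. Clone 41 was 1.52 log2 units above clone 18 (limma adjusted p = 0.043). Against untransfected cells the differences were -2.49 in clone 18 and -0.97 in clone 41, and against the IgM+ line -3.57 and -2.05, so its lower level was seen in both clones and was deeper in clone 18. The probe was well above background on 3 of the 4 IgE+ arrays.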

How the results depend on the processing

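Both Casp4 probes stayed called in the comparison of IgE+ clones with control lines under every alternative run that tested them, at -5.11 to -3.80 (probe 1) and -5.26 to -3.67 (probe 2). The count of 3 member probes became 6 at adjusted p alone. It was 0 for clone 41 against IgM+ with no filter, and 2 for IgM+ against untransfected with median scaling. Leaving out 1 array gave 0 to 3 for clone 18 against IgM+, 1 to 4 for clone 41 against untransfected and 0 to 4 for clone 41 against IgM+. Casp8 differences from IgM+ in these fits ran from -1.26 to -1.06 for clone 18 and from -1.15 to -1.06 for clone 41. The pairwise calls against IgM+, Casp8 included, were nonetheless lost without some single arrays, which leaves 1 array in a line. The cause was not tested. The 5 pathway calls became 8 with median scaling, 3 with normexp, 1 with probes above background on all arrays and 12 at adjusted p alone, and 5 to 12 without 1 array.

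Median scaling moved the median difference of all probes from 0.05 to 0.24. It turned the sign of Casp1 against IgM+ (clone 18 0.0796, clone 41 0.26), Casp9 in clone 41 against IgM+ (0.0555), and IgM+ against untransfected for Casp1 (-0.37), Casp2 (-0.41) and Casp6 (-0.30). Quantile normalization did so for Casp9 (0.076) and normexp for Casp1 (-0.0076) in IgM+ against untransfected. Without 1 array, differences between IgM+ and untransfected ranged from -0.32 to 0.36 for Casp2, -0.0095 to 0.27 for Casp6 and -0.21 to 0.17 for Casp9. Between clones they ranged from -0.0041 to 0.23 for Casp1, -0.0764 to 0.46 for Casp2 and -0.0419 to 0.15 for Casp8. None of these was called in the reported fit.

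Same-numbered arrays deviated together in part, and not in every pair of lines. Their correlations ran from -0.074 (untransfected with clone 18) to 0.349 (untransfected with clone 41). With the replicate number as a block, 3 member probes were called in the pooled comparison, as without it. For clone 41 against IgM+ the block gave 4 in place of 3, with Casp2 added (1.045, limma adjusted p = 0.0462), and it changed no other count of member probes. Only 2 arrays per line limit what small differences can be told from the spread.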
